A study of Mus musculus with 6 samples.

Results

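The enzymes described here carry the middle of glycolysis, from the cleavage of fructose bisphosphate by aldolase to the formation of phosphoenolpyruvate by enolase. The set holds the genes of aldolase (Aldoa, Aldoc), triosephosphate isomerase (Tpi1), glyceraldehyde phosphate dehydrogenase (Gapdh), phosphoglycerate kinase (Pgk1), phosphoglycerate mutase (Pgam1, Pgam2) and enolase (Eno1, Eno2, Eno3), and its members are all array probe sets annotated with these symbols alone. Of the 10 genes, 9 had such probe sets, 20 of the 45101 on the array, and Eno1 was not analysed here. Of the 20 probe sets, 18 were in the upper 50% by mean level, and these represented 8 genes. The only probe set of Eno2 and the dimmer of the Aldoc probe sets lay under that limit and are given as values.

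Expression was measured on Affymetrix arrays in glomeruli, the filtering units of the kidney, isolated with magnetic beads from 6 female mice aged 6 weeks, 1 array per mouse, which the labels call biological replicates. The 3 mice labelled transgenic carried Pod-Cre, a Cre recombinase driven by the podocin promoter and active in podocytes, the epithelial cells around the glomerular capillaries, together with a floxed Vhl gene (fVHL), and they are called Vhl-deleted below. The 3 controls were littermates labelled wildtype, and the labels do not say whether these carried floxed Vhl alleles. Urine was collected at 4 weeks, and only mice with the deletion whose urinary albumin did not exceed the wild-type average entered the study. The mouse model deletes Vhl in podocytes only, so that endothelial, mesangial and other cells in the preparation keep the gene. In whole glomeruli, a different number of cells of a type and a different amount of RNA per cell cannot be told apart.

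Vhl encodes a ubiquitin ligase subunit that marks hypoxia-inducible factors (HIF) for degradation, and glycolytic enzyme genes are textbook HIF targets. In the middle steps of glycolysis, the sugar is split and oxidised, NADH is formed, and the pathway returns ATP at phosphoglycerate kinase. These steps are reversible and also serve gluconeogenesis, for which the proximal tubule of the kidney is known. Aldoa, Pgam1 and Eno1 are the widely expressed isoforms, Aldoc and Eno2 are best known from brain, and Pgam2 and Eno3 from muscle.

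Values are MAS5 signals on a linear scale, and changes are differences of log2(signal + 28), Vhl-deleted minus wild-type, with the standard error (SE) or 95% interval, n = 3 arrays per group throughout. Groups were compared with limma over all 11160 genes tested, each represented by its brightest probe set, with Benjamini-Hochberg adjustment and a threshold of 0.05. With 3 arrays in a group, precision is limited by the number of arrays and by the spread of each gene between them. The Vhl signal was 809, 665 and 707 on the wild-type arrays and 611, 619 and 606 on the Vhl-deleted arrays, replicates 1 to 3 each, so the groups did not overlap. Of all 11160 genes tested, 629 were likewise lower in the Vhl-deleted group without overlap. The Vhl change of -0.23 did not pass (limma adjusted p = 0.943). It is only a loose check of the labels, since other cells keep the gene and the place of the probes relative to the deletion is not known here. Wild-type replicate 3 stood apart from the other 5 arrays in the summed transcripts of proximal tubule and of distal nephron. The summed signal of 12 proximal tubule markers (tubule markers below), all of them tested, was 24406 on that array, against 85588 and 102144 on the other wild-type arrays and 80303 to 125720 on the Vhl-deleted arrays. That of 6 distal nephron markers was 22125, against 52642 and 50855 on the other wild-type arrays and 40541 to 63040 on the Vhl-deleted arrays. The preparation also held podocyte transcripts in every array, with Podxl, the podocalyxin gene, between 23771 and 30441, and the summed signal of the 10 podocyte markers tested was 134010 in wild-type replicate 3 against 96906 to 115541 on the other 5 arrays. Changes of the enzyme genes are also given without that array and with the tubule marker level as a covariate. The part of tubule transcripts in these changes was not tested.

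The upstream sequences of the enzyme genes are shown because HIF binds DNA through a short core, read here as ACGTG or GCGTG on either strand. Sequences are the 250 bases before the annotated transcription start, from RefSeq (GRCm38.p6), 5′ to 3′ in the direction of the gene, with matches in capitals. All 10 genes matched the promoter table. The 4 shown are the tested genes with 1 listed start that is also the outer end of the gene.
Tpi1, chr6:124814159-124814408, minus strand: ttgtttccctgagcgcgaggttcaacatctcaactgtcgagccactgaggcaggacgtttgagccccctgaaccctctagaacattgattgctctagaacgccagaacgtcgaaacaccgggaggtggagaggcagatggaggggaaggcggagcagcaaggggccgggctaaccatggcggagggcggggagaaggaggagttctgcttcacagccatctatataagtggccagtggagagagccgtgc
Pgk1, chrX:106186850-106187099, plus strand: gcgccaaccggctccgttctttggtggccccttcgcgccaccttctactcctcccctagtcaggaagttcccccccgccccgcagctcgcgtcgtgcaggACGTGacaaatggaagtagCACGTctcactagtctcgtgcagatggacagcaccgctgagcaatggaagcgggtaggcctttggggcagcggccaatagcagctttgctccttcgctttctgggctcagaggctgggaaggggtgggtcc
Pgam1, chr19:41911621-41911870, plus strand: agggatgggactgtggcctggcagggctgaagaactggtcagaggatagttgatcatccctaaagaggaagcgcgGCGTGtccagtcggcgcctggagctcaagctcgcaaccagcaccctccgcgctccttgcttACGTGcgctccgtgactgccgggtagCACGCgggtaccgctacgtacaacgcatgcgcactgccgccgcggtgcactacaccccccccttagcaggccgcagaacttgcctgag
Pgam2, chr11:5803797-5804046, minus strand: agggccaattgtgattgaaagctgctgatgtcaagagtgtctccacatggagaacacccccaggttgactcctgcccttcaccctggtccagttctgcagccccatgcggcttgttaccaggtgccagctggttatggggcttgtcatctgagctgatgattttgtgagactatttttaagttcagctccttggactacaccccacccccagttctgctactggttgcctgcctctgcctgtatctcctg

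The Pgk1 sequence held 2 matches, ACGTG 150 bases before the start and its reverse complement 131 bases before it. The Pgam1 sequence held 3, beginning 175, 114 and 88 bases before the start. The Tpi1 and Pgam2 sequences held none, which says only that these letters are not in these windows. Of the 10 enzyme genes, 7 held at least 1 match in the window of some listed start, and 41.5% of all 27025 genes listed did. Over all 32851 listed starts, 38.6% of windows of this length held a match. A match is a description of the letters and was not tested as a binding site. Tpi1, Gapdh and Eno2 lie close together on mouse chromosome 6, with 2 protein-coding genes between Eno2 and Tpi1 and 18 between Tpi1 and Gapdh, while Pgam2, Eno3 and Aldoc share chromosome 11 at larger distances.

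The comparison asked whether the middle steps of glycolysis differed in glomeruli whose podocytes lacked Vhl. The change was above 0 in all 8 genes tested, where it was in 50.9% of all genes, and the median was 0.55 on the log2 scale against 0.00 over all genes tested. Tpi1 had the largest change, 2.10-fold, except that Aldoc was larger with a pseudocount of 1 (1.09 against 1.07 on the log2 scale) and Pgk1 with the probe set of largest variance (1.14, the same to 2 decimals as Tpi1). None of the 8 passed the threshold over all genes (limma, 0 of 8), where 0.0806% of genes were called. Without adjustment 7 of the 8 genes had a limma p under 0.05, where 2.52% of all genes were higher at that level. In the same 7 genes the 3 Vhl-deleted arrays lay above the 3 wild-type arrays, and over all genes this held for 5.04%. The exception in both counts was Pgam2, the muscle isoform of phosphoglycerate mutase. Without wild-type replicate 3 the median was 0.43, and 7 of the 8 changes were above 0 (47.4% of all genes). The same 7 genes showed no overlap of the groups, which then held for 10.7% of all genes. Of these 7 genes, Eno3 no longer had an unadjusted limma p under 0.05 in that fit, and the others still did.

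**Figure D1:**
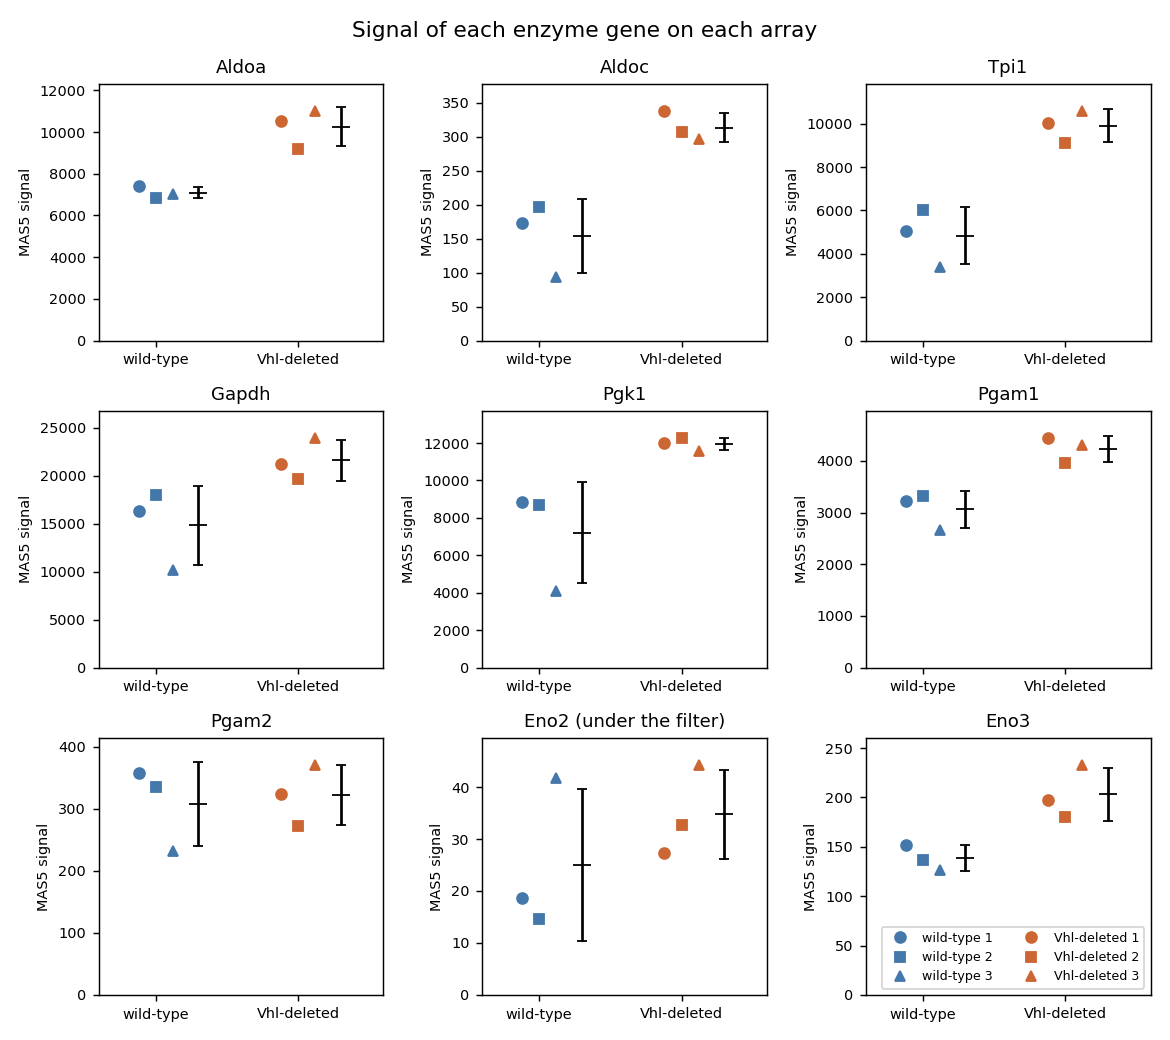
MAS5 signal (vertical axes, linear, from 0) of the brightest probe set of each of 9 enzyme genes on the 3 wild-type (blue) and 3 Vhl-deleted (orange) arrays, with marker shape for the replicate number and black bars for mean ± SD. The groups do not overlap in 7 panels and overlap in Pgam2 and Eno2, and wild-type replicate 3 (blue triangle) is the lowest wild-type point in every panel but those of Aldoa, where it lies between the others, and Eno2, where it is the highest.

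Aldoa encodes the main aldolase, which splits fructose bisphosphate into triose phosphates. Its brightest probe set (1416921_x_at) had signals of 7406, 6857 and 7032 on the wild-type arrays and 10544, 9207 and 11005 on the Vhl-deleted arrays, replicates 1 to 3 each. The wild-type arrays lay close together, replicate 3 included, and all Vhl-deleted arrays lay above them. The means were 7098 ± 280 and 10252 ± 934 (SD), and the log2 change was 0.53 (SE 0.10, limma adjusted p = 0.346), and 0.52 without wild-type replicate 3. The other Aldoa probe sets differed in size. Those named 1434799_x_at and 1439375_x_at had changes of 0.52 and 0.54, while 1433604_x_at was at 0.30 and 1447734_x_at at 0.16 (95% interval -0.11 to 0.44), or 0.07 without wild-type replicate 3. In all 5 the groups did not overlap, and all 5 carry the suffix that the array maker gives to probe sets with probes that may also bind other transcripts.

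Aldoc encodes aldolase C. Its kept probe set (1451461_a_at) had signals of 173, 196 and 93.3 on the wild-type arrays and 338, 307 and 296 on the Vhl-deleted arrays. Wild-type replicate 3 was the lowest array, and the groups did not overlap. The log2 change was 0.95 (SE 0.25, limma adjusted p = 0.671), and 0.68 without wild-type replicate 3. The dimmer probe set (1424714_at) was between 5.63 and 15.3 on all 6 arrays and gave no reading of the gene. Within each array, Aldoc minus Aldoa on the log2 scale was higher by 0.43 in the Vhl-deleted group, with overlap of the groups (exact permutation test over the 6 arrays, two-sided, p = 0.2, and 0.2 adjusted over the 2 isoform contrasts run). This difference was 0.17 without wild-type replicate 3 and 0.20 with a pseudocount of 100.

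Tpi1 encodes triosephosphate isomerase, which converts dihydroxyacetone phosphate into glyceraldehyde phosphate so that all of the carbon can go on. The brightest probe set (1452927_x_at) read 5062, 6012 and 3407 on the wild-type arrays and 10045, 9086 and 10576 on the Vhl-deleted arrays, replicates 1 to 3 each. Every Vhl-deleted array exceeded the highest wild-type array, and wild-type replicate 3 was the lowest of the 6. The means were 4827 ± 1318 and 9902 ± 755 (SD), and the log2 change was 1.07 (95% interval 0.59 to 1.55, limma adjusted p = 0.341), larger than that of 99.7% of the genes tested. The other probe sets of the gene, 1415918_a_at and 1435659_a_at, had changes of 1.14 and 1.06. The brightest Tpi1 probe set carries the same suffix as those of Aldoa, for probes that may also bind other transcripts, and the other Tpi1 probe sets do not. Without wild-type replicate 3 the gene's change was 0.84 (limma adjusted p = 0.0982). With the mean level of the tubule markers on each array as a covariate it was 0.86 and passed over all genes (limma adjusted p = 0.0176), where 0.242% of genes were called. It also passed with array weights (0.90, limma adjusted p = 0.0428), where 0.296% were called. No other gene of the set passed in any of the settings run. With the covariate the changes of Aldoa, Aldoc and Gapdh were 0.51, 0.73 and 0.34. Those of Pgk1, Pgam1, Eno3 and Pgam2 were 0.50, 0.38, 0.41 and -0.10. The covariate was 10.54 on wild-type replicate 3 and 12.18 to 12.80 on the other arrays, so this fit is not separate from the one without that array.

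Gapdh encodes the dehydrogenase that oxidises glyceraldehyde phosphate and forms NADH, and it is widely used as a reference gene. On this array the symbol alone belongs to 3 control probe sets, which cover the 5′, middle and 3′ parts of the transcript. The 5′ control read 16346, 17990 and 10146 on the wild-type arrays and 21190, 19675 and 23883 on the Vhl-deleted arrays, a range of 2.35-fold over the 6 arrays. The Vhl-deleted arrays lay above the wild-type arrays, and wild-type replicate 3 lay far below all others. The log2 change was 0.58 (95% interval 0.07 to 1.09, limma adjusted p = 0.943), and the middle and 3′ controls had changes of 0.67 and 0.60. Without wild-type replicate 3 these 3 changes were 0.33, 0.39 and 0.38. The ratio of the 3′ to the 5′ control, a reading of RNA quality, lay between 0.773 and 0.829 on all arrays. A further 3 probe sets are annotated to Gapdh together with pseudogenes or other genes and cannot be assigned; their changes were 0.38, 0.37 and 0.45, or 0.27, 0.38 and 0.26 without wild-type replicate 3, and none passed over all arrays (limma).

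Pgk1 encodes phosphoglycerate kinase, a step at which glycolysis returns ATP. The brightest probe set (1438640_x_at) read 8842, 8699 and 4080 on the wild-type arrays and 11984, 12250 and 11589 on the Vhl-deleted arrays, replicates 1 to 3 each. The Vhl-deleted arrays were close together and above all wild-type arrays, of which replicate 3 was at 0.465 of the mean of the other 2. The log2 change was 0.81 (95% interval 0.13 to 1.49, limma adjusted p = 0.917), and 0.44 without wild-type replicate 3. The probe set 1417864_at, whose name carries no suffix for shared probes, had a change of 0.88, and 0.59 without that array. The dimmest, 1439435_x_at, read 1628, 1788 and 1374 on the wild-type arrays and 2626, 3459 and 4859 on the Vhl-deleted arrays. Its change of 1.14 was close to those of the Tpi1 probe sets, with the Vhl-deleted arrays more widely spread than on the other Pgk1 probe sets, and it was 1.04 without wild-type replicate 3.

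Phosphoglycerate mutase moves the phosphate of phosphoglycerate before enolase acts. Pgam1, the widely expressed isoform, read 3221, 3314 and 2654 on the wild-type arrays and 4434, 3949 and 4308 on the Vhl-deleted arrays (1426554_a_at). The groups did not overlap, and the log2 change was 0.47 (SE 0.12, limma adjusted p = 0.669), and 0.37 without wild-type replicate 3. Pgam2, the muscle isoform, read 358, 334 and 231 on the wild-type arrays and 324, 273 and 370 on the Vhl-deleted arrays (1418373_at). The groups overlapped, with a change of 0.07 (95% interval -0.40 to 0.54), and of -0.11 without wild-type replicate 3. Within each array, Pgam2 minus Pgam1 on the log2 scale was -3.07, -3.20 and -3.37 on the wild-type arrays and -3.67, -3.73 and -3.45 on the Vhl-deleted arrays. The Vhl-deleted values were all the lower ones, with a difference of -0.40 (exact permutation test, two-sided, p = 0.1, the smallest that 3 against 3 arrays allow, and 0.2 adjusted over the 2 contrasts).

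Enolase forms phosphoenolpyruvate, the substrate of pyruvate kinase. Eno3, the muscle isoform, read 152, 137 and 126 on the wild-type arrays and 198, 180 and 232 on the Vhl-deleted arrays (1417951_at). The groups did not overlap, and the log2 change was 0.47 (95% interval 0.08 to 0.86, limma adjusted p = 0.916), and 0.42 without wild-type replicate 3. Eno2, the neuronal isoform, read 18.7, 14.6 and 41.8 on the wild-type arrays and 27.4, 32.7 and 44.2 on the Vhl-deleted arrays (1418829_a_at). These signals lie around the pseudocount of 28, the groups overlapped, and Eno2 was not tested in the comparison over the genes kept; with no filter its change was 0.27 (limma adjusted p = 0.962). Of the 8 skeletal muscle markers none was bright enough to be tested, their summed signal was between 240.2 and 375.6 in wild-type and between 312.2 and 501.3 in Vhl-deleted arrays, and the muscle creatine kinase gene Ckm lay between 18.2 and 96.7. Of the 8 nerve markers, 2 were tested, and the summed signal of all 8 was 646.7 to 741.6 in wild-type and 568.3 to 881.5 in Vhl-deleted arrays. The part of either cell type in the isoform signals was not tested.

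**Figure D2:**
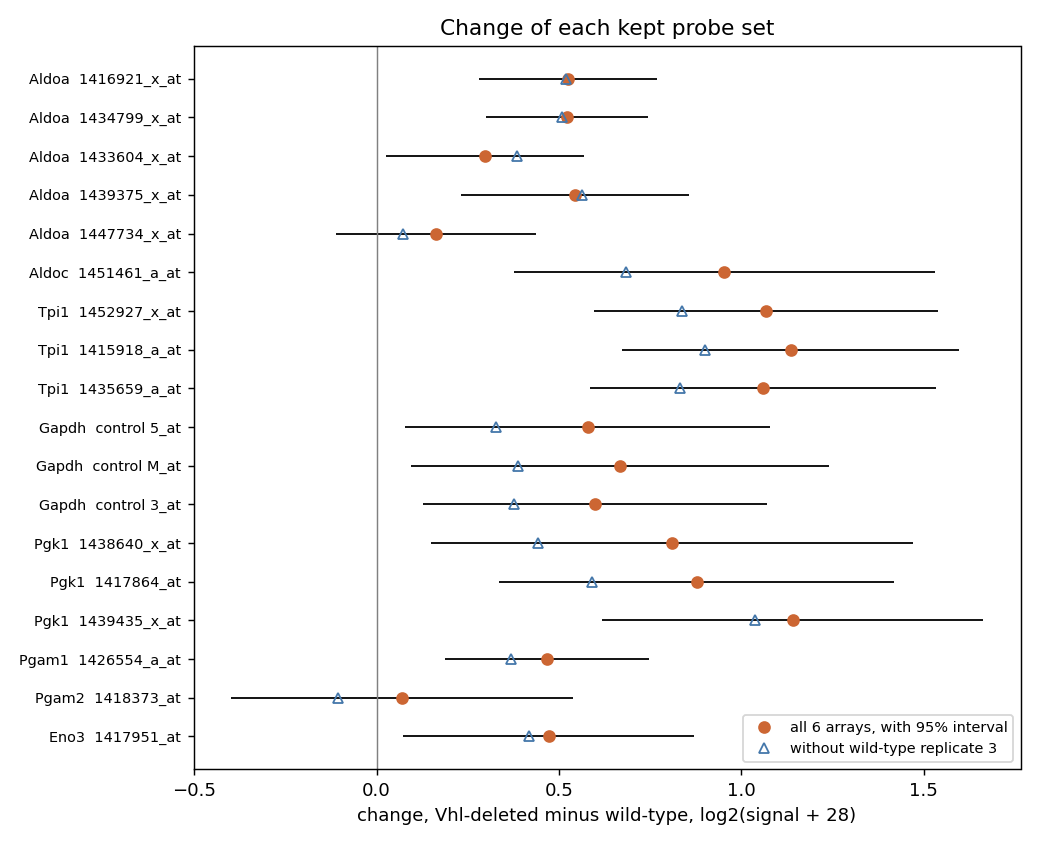
Change of each of the 18 kept probe sets (horizontal axis, Vhl-deleted minus wild-type on the log2(signal + 28) scale), with orange points and 95% intervals from limma over all 6 arrays and open triangles without wild-type replicate 3. Intervals of 16 probe sets lie above 0, the 3 Tpi1 probe sets lie between 1.06 and 1.14, and leaving out wild-type replicate 3 moves the points of Gapdh and Pgk1 more than those of Aldoa.

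At the level of probe sets, adjusted over all 22516 tested without controls, 0 of the 15 kept probe sets of the set passed (limma adjusted p between 0.284 and 0.973), where 0.0666% were called. Of these 15, 13 had an unadjusted limma p under 0.05, where 2.18% of all probe sets were higher at that level, and in 14 the Vhl-deleted arrays lay above all wild-type arrays, where 4.56% of all probe sets did. Probe sets of 1 gene read the same RNA and are not replicates. Without wild-type replicate 3, the Tpi1 probe set 1415918_a_at passed (0.90, limma adjusted p = 0.0479), where 0.0933% of probe sets were called.

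The genes differed in how low wild-type replicate 3 lay. Its signal relative to the mean of the other 2 wild-type arrays was 0.986 for Aldoa and 0.874 for Eno3, against 0.615 for Tpi1, 0.591 for Gapdh, 0.505 for Aldoc and 0.465 for Pgk1, each on the brightest probe set. The same 2 wild-type arrays set against the 3 Vhl-deleted arrays gave ratios of mean signals of 1.79 for Tpi1, 1.70 for Aldoc, 1.44 for Aldoa, 1.41 for Eno3, 1.36 for Pgk1, 1.29 for Pgam1, 1.26 for Gapdh and 0.930 for Pgam2. On the log2 scale Pgk1 had the third largest change of the 8 genes over all arrays and the fourth largest without that array.

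Each gene was also set against the Gapdh 5′ control on the same array, a comparison chosen after the data were seen. Gapdh itself had a change of 0.58, so that a gene with a smaller change, such as Pgam2 (0.07), stands lower in this measure. The share of all genes whose groups did not overlap in this measure was not computed. Tpi1 minus Gapdh on the log2 scale was -1.69, -1.58 and -1.57 on the wild-type arrays and -1.07, -1.11 and -1.17 on the Vhl-deleted arrays. The wild-type values lay close together, replicate 3 included, and all Vhl-deleted arrays lay above them, by 0.49 on average and by 0.51 without wild-type replicate 3. Aldoc stood higher relative to Gapdh by 0.37, and Pgam2 lower, at -0.51, both without overlap of the groups. Without wild-type replicate 3 these were 0.36 and -0.43. The groups overlapped for Aldoa (-0.05), Pgam1 (-0.11), Eno3 (-0.11) and Pgk1 (0.23), and without wild-type replicate 3 the differences of these 4 genes were 0.19, 0.04, 0.09 and 0.12, so that the sign turned for Aldoa, Pgam1 and Eno3. The exact permutation p was 0.1 for Tpi1, Aldoc and Pgam2, the smallest that the design allows, and 0.233 adjusted over the 7 genes compared.

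**Figure D3:**
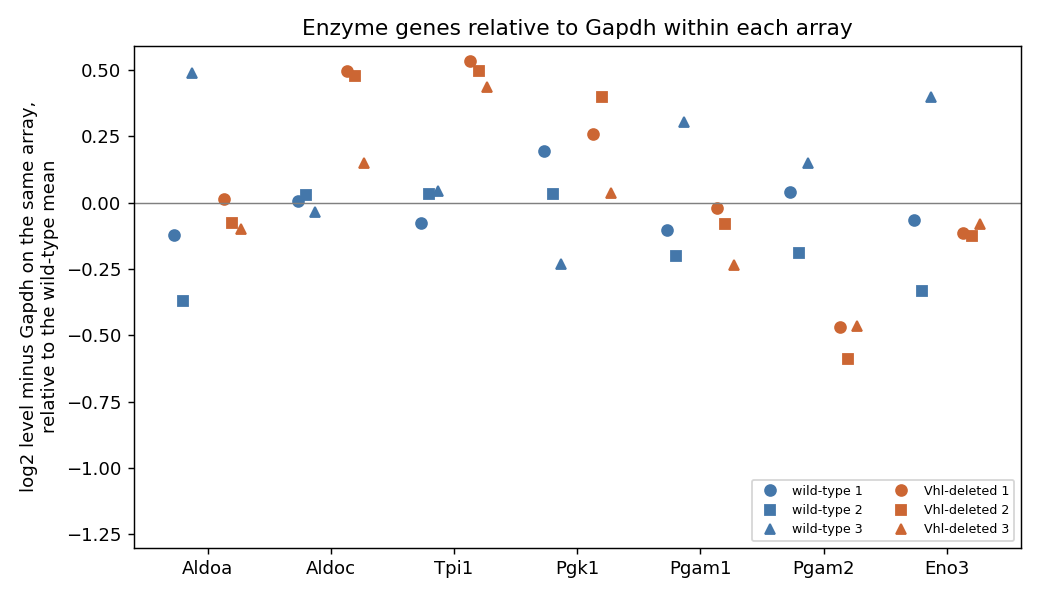
Log2 level of each of 7 enzyme genes minus that of the Gapdh 5′ control on the same array, drawn relative to the wild-type mean of that difference (vertical axis, log2 units), for 3 wild-type (blue) and 3 Vhl-deleted (orange) arrays. The groups are apart for Tpi1 and Aldoc (Vhl-deleted higher) and Pgam2 (Vhl-deleted lower) and overlap for the other 4 genes.

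The other genes of glycolysis give the setting of these changes. Of 22 genes from glucose transport to lactate and its regulation, 16 were tested, 14 of these were above 0, the median was 0.40, 2 rose and 0 fell (limma, over all genes). Over all genes tested, 50.9% were above 0 and 0.0806% were called in either direction. Both that rose encode irreversible steps on either side of the enzymes described: Pfkl, a phosphofructokinase, with a change of 1.24 (SE 0.09, limma adjusted p = 0.00594), and Pkm, pyruvate kinase, with 1.05 (SE 0.09, limma adjusted p = 0.0172). Pfkl read 959, 1011 and 1013 on the wild-type arrays and 2408, 2308 and 2447 on the Vhl-deleted arrays, so that neither group held an array that stood apart. The change of Tpi1 was as large as that of Pkm, with an SE of 0.20 against 0.09. Without wild-type replicate 3 the median of the other glycolysis genes was 0.08, and Pfkl and Pkm passed again, where 0.108% of all genes were called. Neither passed when replicate 1 or 2 of either group was left out, 1 array at a time, or with the replicate number as a block. When replicate 3 of the Vhl-deleted group was left out, Pfkl passed and Pkm did not. Of the relatives of these enzymes, Bpgm, which makes bisphosphoglycerate, was at 0.01. The glycerol phosphate dehydrogenase genes Gpd1 and Gpd2, whose enzymes have dihydroxyacetone phosphate as substrate or product, were at 0.27 and -0.10. None of these 3 passed, and 0 had an unadjusted limma p under 0.05.

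**Figure D4:**
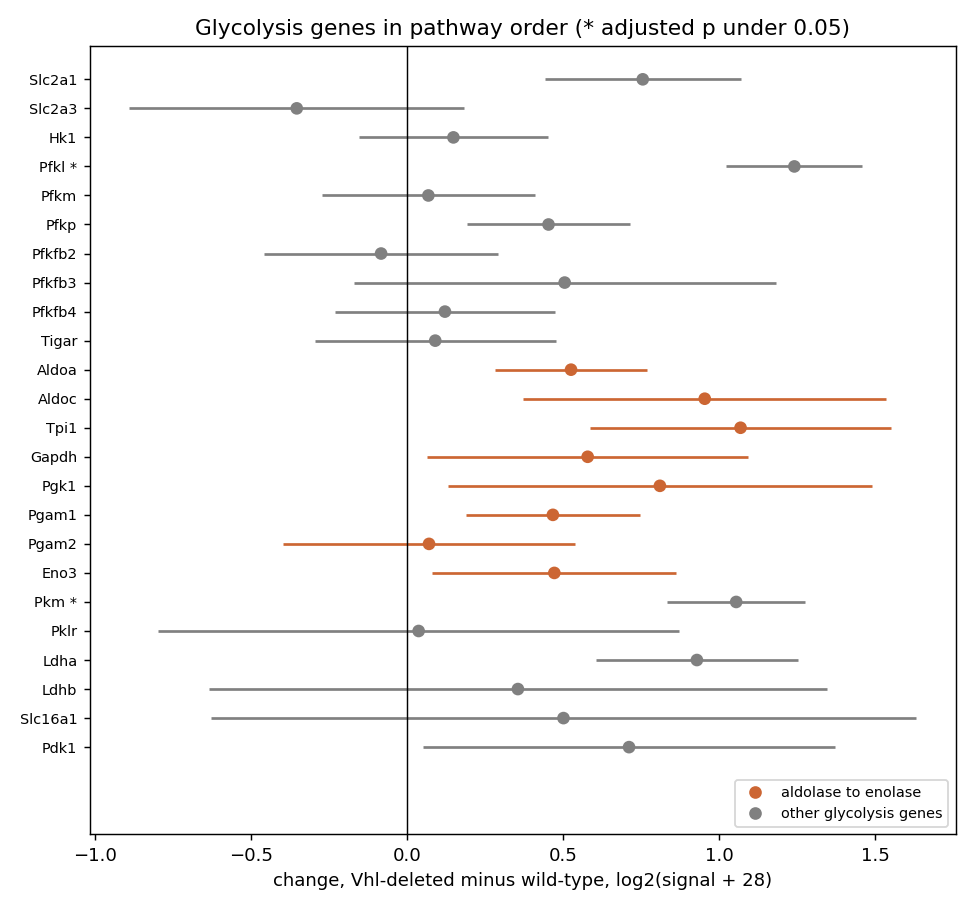
Change (horizontal axis, Vhl-deleted minus wild-type, log2(signal + 28)) with 95% interval from limma for the 8 tested enzyme genes from aldolase to enolase (orange) and 16 other glycolysis genes (grey), ordered from glucose transport at the top to lactate and its regulation at the bottom, with an asterisk where the adjusted p is under 0.05. Pfkl and Pkm are the genes with an asterisk, and the intervals of 7 of the 8 orange genes lie above 0.

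Transcripts of other cells moved between the arrays at the same time. For the marker counts below, 50.9% of all 11160 genes tested were above 0. At an unadjusted limma p under 0.05, 281 of the 11160 genes (2.52%) were higher and 269 lower. The 12 tubule markers were all at changes above 0 (median 0.72), and 0 of them passed the threshold or had an unadjusted limma p under 0.05. The mean log2 level of the 8 enzyme genes was 10.96, 10.99 and 10.43 on the wild-type arrays and 11.44, 11.31 and 11.49 on the Vhl-deleted arrays, replicates 1 to 3 each, and that of the tubule markers was 12.37, 12.58 and 10.54 on the wild-type arrays and 12.18, 12.31 and 12.80 on the Vhl-deleted arrays. Wild-type replicate 3 was thus the lowest array for both. Vhl-deleted replicate 3 was the highest array for both, and the other Vhl-deleted arrays were higher than wild-type replicates 1 and 2 for the enzyme genes and lower for the tubule markers. Of 8 annotated immune markers, 6 were tested, with a median change of 0.81, 0 past the threshold and 4 higher at an unadjusted limma p under 0.05, and the summed signal of all 8 was 3151 to 4083 in wild-type and 5089 to 8771 in Vhl-deleted arrays. The invariant chain gene Cd74, the tested immune marker with the largest change, read 1049, 873 and 1055 on the wild-type arrays and 1586, 1674 and 3138 on the Vhl-deleted arrays. Besides Cd74, the immune genes higher at that unadjusted level were H2-Aa, H2-Eb1 and Ptprc. The groups overlapped for the other tested immune markers, Cd68 (0.14) and Adgre1 (-0.13). The median change was -0.26 over the 10 podocyte markers tested and 0.07 over 8 endothelial markers, and 0 passed the threshold in either list, where at an unadjusted limma p under 0.05 the podocyte list had 1 gene higher and 2 lower and the endothelial list 0. The 7 mesangial and smooth muscle markers had a summed signal of 40855 to 47697 in wild-type and 49526 to 53038 in Vhl-deleted arrays, without overlap, with a median change of 0.17, 6 changes above 0 and 0 past the threshold, and Myl9 (0.40) and Tagln (0.53) were higher at an unadjusted limma p under 0.05. The part of immune, podocyte, endothelial, mesangial and smooth muscle transcripts in the enzyme changes was not tested.

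**Figure D5:**
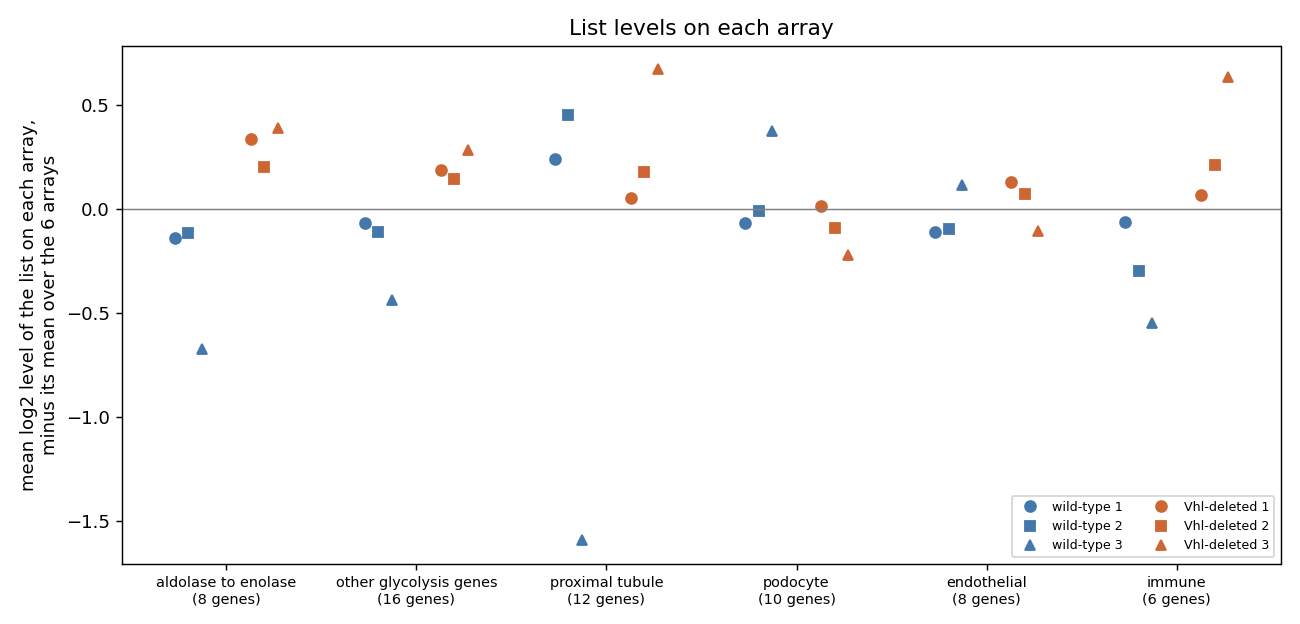
Mean log2 level of 6 gene lists on each array minus the list's mean over the 6 arrays (vertical axis, log2 units), for wild-type (blue) and Vhl-deleted (orange) arrays with marker shape for the replicate number. The enzyme genes from aldolase to enolase are higher on every Vhl-deleted array than on any wild-type array, and wild-type replicate 3 is the lowest array of the enzyme, other glycolysis, proximal tubule and immune lists and the highest of the podocyte list.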

How the data were processed

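The authors deposited 1 intensity per probe set and array, a MAS5 signal on a linear scale, per the submitters' processing notes, which give no version; in the deposited values the mean of each array without the lowest and highest 2% is 500. No pair of arrays held identical values.

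Symbols came from the array annotation, updated through Entrez numbers (34754 of 34958 probe sets with 1 symbol matched). The pseudocount of 28 is the 25th percentile of all signals. The upper 50% of probe sets by mean log2 level was kept, a signal of about 96.4, and the brightest stood for each gene. R 4.3.3 and limma 3.58.1 (lmFit, eBayes with an intensity trend) gave every adjusted p of a gene. Control probe sets with 1 symbol were kept in the gene comparison, since Gapdh has no others; the probe set comparison left controls out, and the Gapdh controls were added to it for their own values. The planned contrasts with Eno1 could not be run.

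The members and gene lists were chosen with earlier results of these data known. The rule for named genes took all members, the genes of the glycolysis list that passed, and the 3 of lowest p among the relatives. It also took the brightest markers where a value was needed. Ckm, Vhl, Ldha and the immune and smooth muscle genes were named beside a result. The scripts were tested on simulated data. Alternatives changed the scaling, pseudocount, filter, probe set, variance model, weights, block and covariate, and left out each array in turn.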

Additional observations from a re-analysis of the deposited data

How the results depend on the processing

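Over the 20 alternatives, Aldoa, Tpi1, Gapdh, Pgk1 and Pgam1 kept a positive change, and so did Aldoc and Eno3 over the 19 that tested them; Tpi1 alone passed, with the tubule covariate and with array weights. Pgam2 turned to -0.10 with array weights (-0.095 in the probe set comparison) and with the tubule covariate, and to between -0.11 and 0.18 when 1 array was left out, below 0 where wild-type replicate 3 or Vhl-deleted replicate 3 (-0.03) was missing. The count of enzyme genes past the threshold, 0 otherwise, was 1 with array weights and 1 with the tubule covariate; the count of their probe sets was 2 and 3, and between 0 and 1 when 1 array was left out. The 9 genes called in all became 33 with array weights, 27 with the covariate, 14 with a filter on the mean of signals (added after seeing the data) and 1 with the replicate block, and between 1 and 12 when 1 array was left out. The other glycolysis genes had a median of 0.16 with array weights, 0.11 with the covariate and between 0.082 and 0.44 when 1 array was left out. Their 2 calls became 3 with array weights and with the covariate, where Ldha also passed. The calls became 0 with the replicate block and between 0 and 2 when 1 array was left out. With the block no enzyme gene passed, as without it; same-numbered arrays of the 2 groups deviated from their group means with correlations of -0.02, -0.41 and -0.51, so the numbers were not taken to pair mice. An unadjusted limma p under 0.05 was lost by Gapdh with quantile normalization and by Eno3 with the tubule covariate. Gapdh and Eno3 lost it with median scaling and with the replicate block. When 1 array was left out, Gapdh, Pgk1 and Eno3 lost it in some fits, and Aldoa, Aldoc, Tpi1 and Pgam1 in none. The causes of these differences were not tested. Signals near the pseudocount limit what can be read of Eno2.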
